A study of Mus musculus with 14 samples.

Results

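Collagens, laminins and integrins are the proteins through which a cell builds an extracellular matrix and holds on to it. The genes described here are those whose array symbol begins as a collagen chain (Col, a number, a chain), a laminin chain (Lama, Lamb or Lamc) or an integrin chain (Itga or Itgb), a rule that uses no measured value. It found 85 of the 23152 genes on the array, made up of 43 collagens, 10 laminins, 27 integrins and 5 genes that are no chains of these families (Col4a3bp, Itgb1bp1, Itgb1bp2, Itgb3bp and Itgbl1). Of the 85, 78 were bright enough to be tested. The other 7 (Col10a1, Col14a1, Itga10, Itgad, Itgb2l, Itgb6 and Itgbl1) had a mean log2 level under 4.40, the limit below which a gene was taken as dim.

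Collagen chains wind into triple helices that form fibrils, the sheets of basement membranes or beaded filaments. A laminin is a cross of 1 alpha, 1 beta and 1 gamma chain and is the main adhesive protein of basement membranes. Integrins are receptors of 1 alpha and 1 beta chain that bind these proteins outside the cell and the actin skeleton inside it. In the subventricular zone, laminin-rich deposits reach from blood vessels towards the stem cells, which hold on to them with laminin-binding integrins.

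The 14 Affymetrix arrays hold RNA levels of cultured neural stem cells, grown from the subventricular zone of mice aged 4 days. Each culture, called a clone, came from a single animal, and all 7 carried an adenovirus with Cre recombinase. Clones 5, 6 and 7 came from Cicflox/flox animals and had lost Cic through Cre, and clones 1, 2, 3 and 4 were wild type. Cic encodes capicua, a repressor that growth factor signalling through ERK takes off its target genes. The groups were Cic-/- with EGF (n = 3), Cic-/- without EGF (n = 3), Cic+/+ with EGF (n = 4) and Cic+/+ without EGF (n = 4), each after 24 h in its medium. Each clone gave 1 array with EGF and 1 without. Cre and the virus were thus shared by both genotypes, and all cells were cultures outside the animal.

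Levels are on the log2 scale, on which a difference of 1 is a doubling. The value of a gene is the median of its probesets, which are groups of probes along its transcript. A difference is given ± its SE from limma, and a group level as the mean ± SD. A gene passed at a Benjamini-Hochberg adjusted p under 0.05 over the 17364 genes tested, and "rose" and "fell" are kept for genes that passed this test. Because the arrays with and without EGF come from the same animals, the adjusted p with the clone as a random block is given beside a result where it changes the call. Probe brightness differs between genes, so no gene's level is set against another's.

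Cic was lower on every Cic-/- array than on any Cic+/+ array, at 7.40 to 7.67 with EGF and 7.04 to 7.48 without it in Cic-/-, against 9.41 to 9.69 and 9.18 to 9.64 in Cic+/+. All 10 neural stem cell markers found on the array lay above the dim limit. The defining fibroblast genes Dcn and Lum did not exceed 4.77 and 4.10 on any array, and the pan-leukocyte gene Ptprc did not exceed 4.57. Most genes of their lists were not dim. Under the dim limit lay 3 of 12 meningeal fibroblast, 2 of 11 microglia and 0 of 10 mural cell markers. The mean level per array was 5.56 to 5.97, 5.13 to 5.57 and 5.86 to 6.68 for these lists. Whether such cells were present was not tested. No gene of the microglia, mural cell or meningeal fibroblast lists passed in any comparison in limma. At an unadjusted p under 0.05, these 3 lists held 0 to 1 genes per direction and comparison. Differentiation genes did move. Of 9 oligodendrocyte markers, 0 passed for EGF in Cic-/- and 6 fell with EGF in Cic+/+. Their mean level per array was 5.70 to 6.04 with EGF and 5.94 to 6.16 without it in Cic-/-, against 6.16 to 6.41 and 7.52 to 8.00 in Cic+/+. In bulk cultures, fewer cells of a type and less RNA per cell cannot be told apart.

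The first question was which matrix and adhesion genes differ after 24 h with EGF. Itga4, the alpha 4 integrin that binds fibronectin and VCAM1, rose in both genotypes. In Cic-/- it measured 7.73, 8.54 and 8.60 with EGF, against 6.05, 6.26 and 7.01 without it (clones 5, 6 and 7). In Cic+/+ it measured 7.89, 7.68, 7.06 and 7.77 with EGF, against 6.29, 5.94, 5.91 and 6.02 without it (clones 1 to 4). In both genotypes the lowest array with EGF lay above the highest array without it. For EGF the share of all genes without overlap is not given here. Statements on overlap between media, here and below, are thus set against no background. The difference was 1.85 ± 0.29 in Cic-/- (3.61-fold, limma adjusted p = 0.0165) and 1.56 ± 0.25 in Cic+/+ (2.95-fold, limma adjusted p = 0.00844). The smallest difference in any clone was 1.15, in clone 3. It was seen along the transcript, with 28 of 30 probesets higher with EGF in Cic-/- and all 30 in Cic+/+.

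Itga4 was the only member to pass in either genotype, 1 of 78, where 0.19% of all genes passed in Cic-/- and 0.898% in Cic+/+. With the clone as a random block, 5 members passed in Cic-/-, all higher with EGF, where 2.08% of all genes passed, 1% higher. In Cic+/+ 10 members passed with the block, 7 higher and 3 lower, where 5.17% of all genes passed, 1.97% higher and 3.2% lower. With a fixed block 6 passed in Cic-/- and 12 in Cic+/+, against 2.99% and 5.58% of all genes. Itga4, Lamb1 and Col18a1 passed in both genotypes with either block, and Itga7 and Lama4 in both with the fixed block only. With the block, Itga4 passed in both genotypes whichever clone was left out. Without the block it lost the call in Cic-/- when clone 2, 4, 5 or 6 was left out (limma adjusted p up to 0.393) and in Cic+/+ without clone 2 or 4 (up to 0.119). In Cic-/- it was also lost when the brightest probeset stood for each gene (2.37, limma adjusted p = 0.119), where Col18a1 passed instead. Itga4 also lost the call in Cic-/- with only the arrays compared in the fit (limma adjusted p = 0.257), where no member passed.

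**Figure D1:**
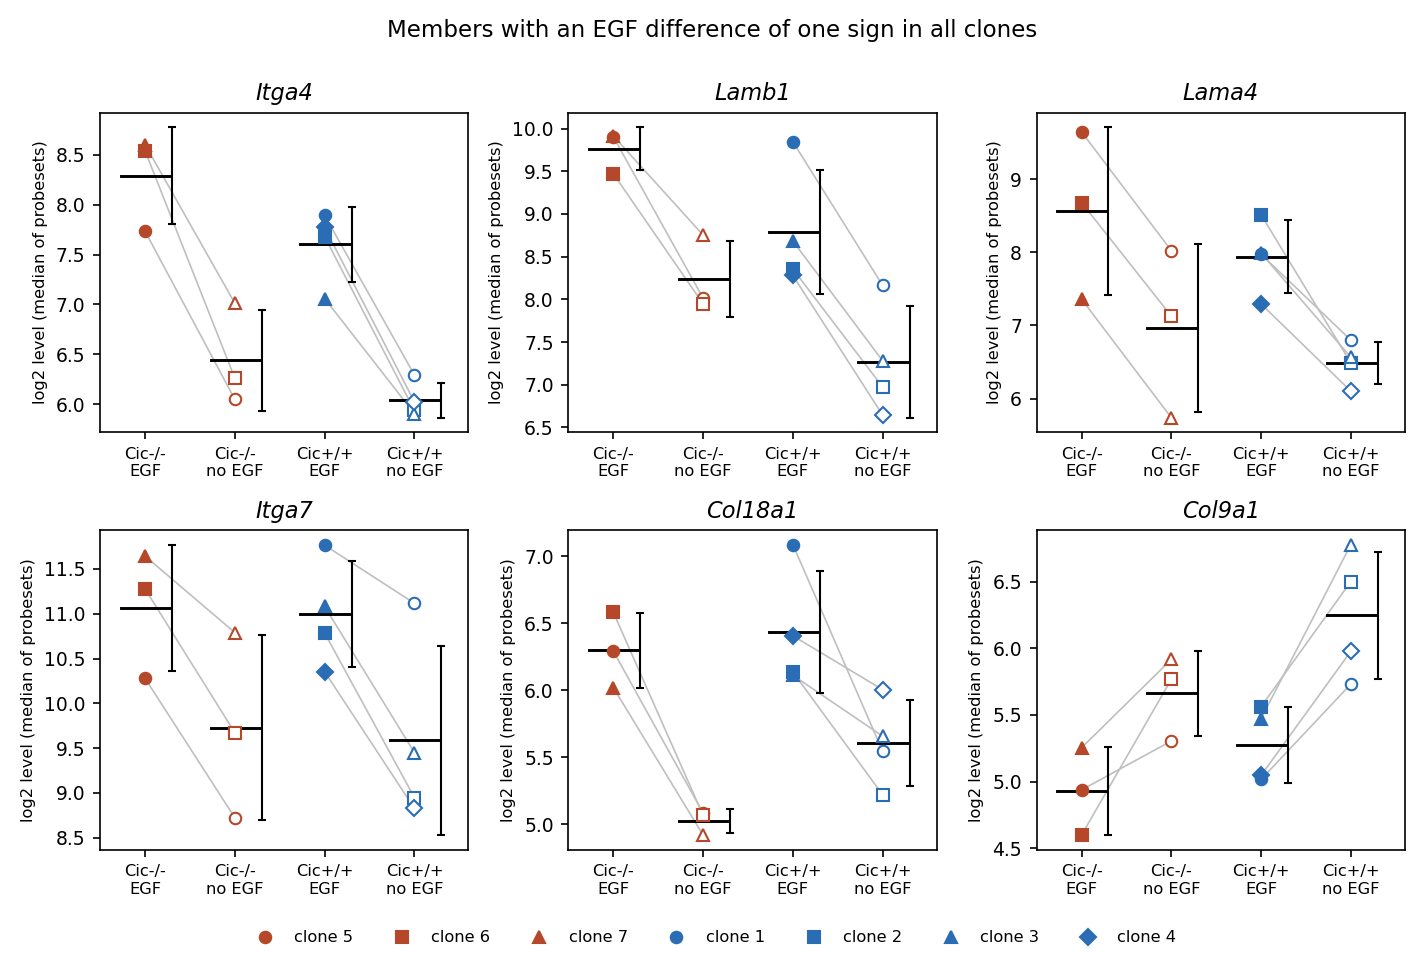
Log2 level of 6 genes on each array, in Cic-/- and Cic+/+ with and without EGF. Points are arrays, marked by clone, grey lines join the arrays of a clone, black lines are means and bars are SD. Itga4 is higher with EGF in each clone, at 7.73 to 8.60 in Cic-/- and 7.06 to 7.89 in Cic+/+. Col9a1 is lower with EGF in each clone.

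Laminin chains came next. Lamb1, the beta 1 chain of most laminins of the early nervous system, measured 9.90, 9.47 and 9.91 with EGF in Cic-/-, against 8.02, 7.95 and 8.75 without it. In Cic+/+ it measured 9.85, 8.36, 8.68 and 8.28 with EGF, against 8.16, 6.97, 7.28 and 6.65 without it. The groups with and without EGF did not overlap in either genotype, and all 33 probesets of Lamb1 were higher with EGF in both. The difference was 1.52 ± 0.41 in Cic-/- (2.88-fold, limma adjusted p = 0.199, with the block 0.0167) and 1.53 ± 0.36 in Cic+/+ (2.88-fold, limma adjusted p = 0.0689, with the block 0.00429). With the block it passed in Cic+/+ whichever clone was left out, and in Cic-/- unless clone 5 or 6 was left out (0.148 and 0.109).

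Lama4, an alpha chain of vessel and embryonic laminins, was higher with EGF by 1.17 to 2.03 in each of the 7 clones. It measured 9.65, 8.68 and 7.36 with EGF in Cic-/-, against 8.02, 7.13 and 5.74 without it. In Cic+/+ it measured 7.97, 8.51, 7.99 and 7.29 with EGF, against 6.80, 6.49, 6.56 and 6.10 without it. The Cic-/- groups overlapped. Within a medium their clones differed by over 2 units, while the 3 clones' own EGF differences lay between 1.55 and 1.62. The difference was 1.60 ± 0.56 in Cic-/- (limma adjusted p = 0.325, with the random block 0.0511 and with a fixed block 0.00146). In Cic+/+ it was 1.45 ± 0.48 (limma adjusted p = 0.198, with the random block 0.026).

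The other broad laminin chains differed less. Lama5, the alpha chain of mature basement membranes, was higher by 0.59 ± 0.18 in Cic-/- (limma adjusted p = 0.264, with the block 0.0571) and by 0.57 ± 0.16 in Cic+/+ (limma adjusted p = 0.128, with the block 0.0235). Lamc1, the gamma 1 chain that pairs with either beta chain, was higher by 0.40 to 0.75 in each clone and did not pass in limma with or without the random block, while with the fixed block it passed in Cic+/+ (limma adjusted p = 0.0126). Lamb2, the beta 2 chain that can take the place of beta 1, was lower with EGF in each clone, by 0.26 to 0.98. Its difference was -0.47 ± 0.33 in Cic-/- (limma adjusted p = 0.72) and -0.51 ± 0.29 in Cic+/+ (limma adjusted p = 0.505), with 1 of 25 probesets higher in Cic-/- and 0 of 25 in Cic+/+. Lama2, the alpha chain of muscle and Schwann cell basement membranes, differed by 0.40 ± 0.30 and 0.07 ± 0.26 in Cic-/- and Cic+/+ (limma adjusted p = 0.749 and 0.951).

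The promoters of Itga4 and Lamb1 are shown because they had the widest EGF differences among the 3 members that passed in both genotypes with the random block. The other was Col18a1. That of Col6a1 is shown because its genotype difference with EGF, described further on, was the widest among the members. Each run holds 300 bases, from 250 before to 50 after the RefSeq start of the gene in mouse assembly GRCm38.p6, read 5′ to 3′ on the strand of the gene. Itga4 lies at chr2:79255176-79255475 on the plus strand, Lamb1 at chr12:31265043-31265342 on the plus strand and Col6a1 at chr10:76725995-76726294 on the minus strand. Capitals mark a match to TGANTCA, the AP-1 motif, which binds the FOS and JUN factors that growth factors induce.
Itga4: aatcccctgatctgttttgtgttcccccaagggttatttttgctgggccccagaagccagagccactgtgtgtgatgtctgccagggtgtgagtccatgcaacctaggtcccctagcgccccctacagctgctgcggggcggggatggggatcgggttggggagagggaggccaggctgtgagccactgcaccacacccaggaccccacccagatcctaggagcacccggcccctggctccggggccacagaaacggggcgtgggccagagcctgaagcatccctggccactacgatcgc
Lamb1: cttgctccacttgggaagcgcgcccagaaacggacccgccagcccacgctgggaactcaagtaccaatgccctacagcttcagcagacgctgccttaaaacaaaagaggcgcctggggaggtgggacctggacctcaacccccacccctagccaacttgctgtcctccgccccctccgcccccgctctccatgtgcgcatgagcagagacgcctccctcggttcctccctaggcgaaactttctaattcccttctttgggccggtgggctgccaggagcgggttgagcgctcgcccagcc
Col6a1: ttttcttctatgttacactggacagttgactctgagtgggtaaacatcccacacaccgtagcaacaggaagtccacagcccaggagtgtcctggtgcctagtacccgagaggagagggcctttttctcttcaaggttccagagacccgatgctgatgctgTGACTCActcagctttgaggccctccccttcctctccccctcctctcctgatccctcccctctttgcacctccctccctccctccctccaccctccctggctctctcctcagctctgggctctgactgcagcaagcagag
The table held 69 such windows for 63 of the members. TGANTCA was searched on both strands and occurred in 4 of the 69 (5.8%), those of Col6a1, Itga3, Itga9 and Itgax, and in 7.81% of all 32851 windows. The 2 capicua octamers TGAATGAA and TGAATGGA were in 0 of the 69 windows, against 1.3% and 1.21% of all windows. These counts describe letters in short windows only.

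Among the laminin-binding integrins, Itga7, a partner of the beta 1 chain that is common in muscle and glia, was higher with EGF in each clone, by 0.65 to 1.84. It measured 10.28, 11.28 and 11.64 with EGF in Cic-/-, against 8.72, 9.67 and 10.79 without it. In Cic+/+ it measured 11.76, 10.78, 11.08 and 10.35 with EGF, against 11.12, 8.95, 9.45 and 8.83 without it. Clones 7 and 1 were the highest of their genotype in both media, and the groups overlapped. The difference was 1.34 ± 0.61 in Cic-/- (limma adjusted p = 0.489, with the fixed block 0.0136) and 1.41 ± 0.53 in Cic+/+ (limma adjusted p = 0.265, with the random block 0.0458). All 24 probesets were higher with EGF in both genotypes. Itga6, the alpha 6 chain by which stem cells are often sorted, differed by 0.65 ± 0.26 in Cic-/- and 0.26 ± 0.23 in Cic+/+ (limma adjusted p = 0.406 and 0.701).

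Itgb1, the beta chain that most of these alpha chains share, was higher with EGF in each clone by 0.15 to 0.69. The difference was 0.44 ± 0.15 in Cic-/- and 0.26 ± 0.13 in Cic+/+ and did not pass (limma adjusted p = 0.314 and 0.433). Itga2, a receptor for collagen, was higher in each clone by 0.30 to 1.67, at 0.81 ± 0.51 in Cic-/- and 1.13 ± 0.44 in Cic+/+ (limma adjusted p = 0.678 and 0.296). With a fixed block Itga2 passed in Cic+/+ (limma adjusted p = 0.00635).

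Itgb3, Itgb5 and Itgb8 are beta chains of integrins that bind the RGD motif. Itgb3, which pairs with the alpha v chain, measured 6.34, 5.52 and 5.49 with EGF in Cic-/-, against 6.80, 6.19 and 5.70 without it. The Cic+/+ clones measured 5.32, 5.35, 5.60 and 5.39 with EGF, against 6.48, 5.86, 6.90 and 6.55 without it. The groups did not overlap in Cic+/+ and overlapped in Cic-/-. The difference was -0.45 ± 0.30 in Cic-/- (limma adjusted p = 0.702) and -1.03 ± 0.26 in Cic+/+ (limma adjusted p = 0.0904, with the block 0.00911). The direction of Itgb3 in Cic+/+ turned to 0.49 when its brightest probeset stood for the gene.

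Itgb5 was lower with EGF in each clone, by 0.24 to 0.54, and 0 of its 18 probesets were higher in either genotype. It passed with a fixed block in Cic+/+ (-0.49 ± 0.28 without block, limma adjusted p = 0.522, with the fixed block 0.0279). Itgb8, the beta chain that activates TGF-beta in neural cells, was lower in 6 of 7 clones, at -0.38 ± 0.19 in Cic-/- and -0.28 ± 0.16 in Cic+/+ (limma adjusted p = 0.555 and 0.524). Itga8, an alpha chain that binds nephronectin, was higher by 0.87 ± 0.30 in Cic-/- and 0.35 ± 0.26 in Cic+/+ and did not pass (limma adjusted p = 0.326 and 0.645). The alpha v chain Itgav, a partner of these beta chains, differed by 0.07 ± 0.15 and -0.06 ± 0.13 in Cic-/- and Cic+/+ (limma adjusted p = 0.937 and 0.9).

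Over all tested members, 13 of 78 (16.7%) were higher with EGF in each of the 7 clones, and 5 of 78 (6.41%) were lower in each. Over all genes these shares were 6.04% and 7.44%. The 13 were 5 of 41 collagens (Col5a1, Col11a1, Col18a1, Col19a1, Col22a1), 4 of 10 laminins (Lama4, Lama5, Lamb1, Lamc1) and 4 of 23 integrins (Itga2, Itga4, Itga7, Itgb1). The 5 were Col9a1, Col23a1, Lamb2, Itgb3 and Itgb5. A difference over 0.5 in each clone was seen in 4 of 78 (5.13%), Itga4, Itga7, Lama4 and Lamb1, against 0.466% of all genes.

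**Figure D2:**
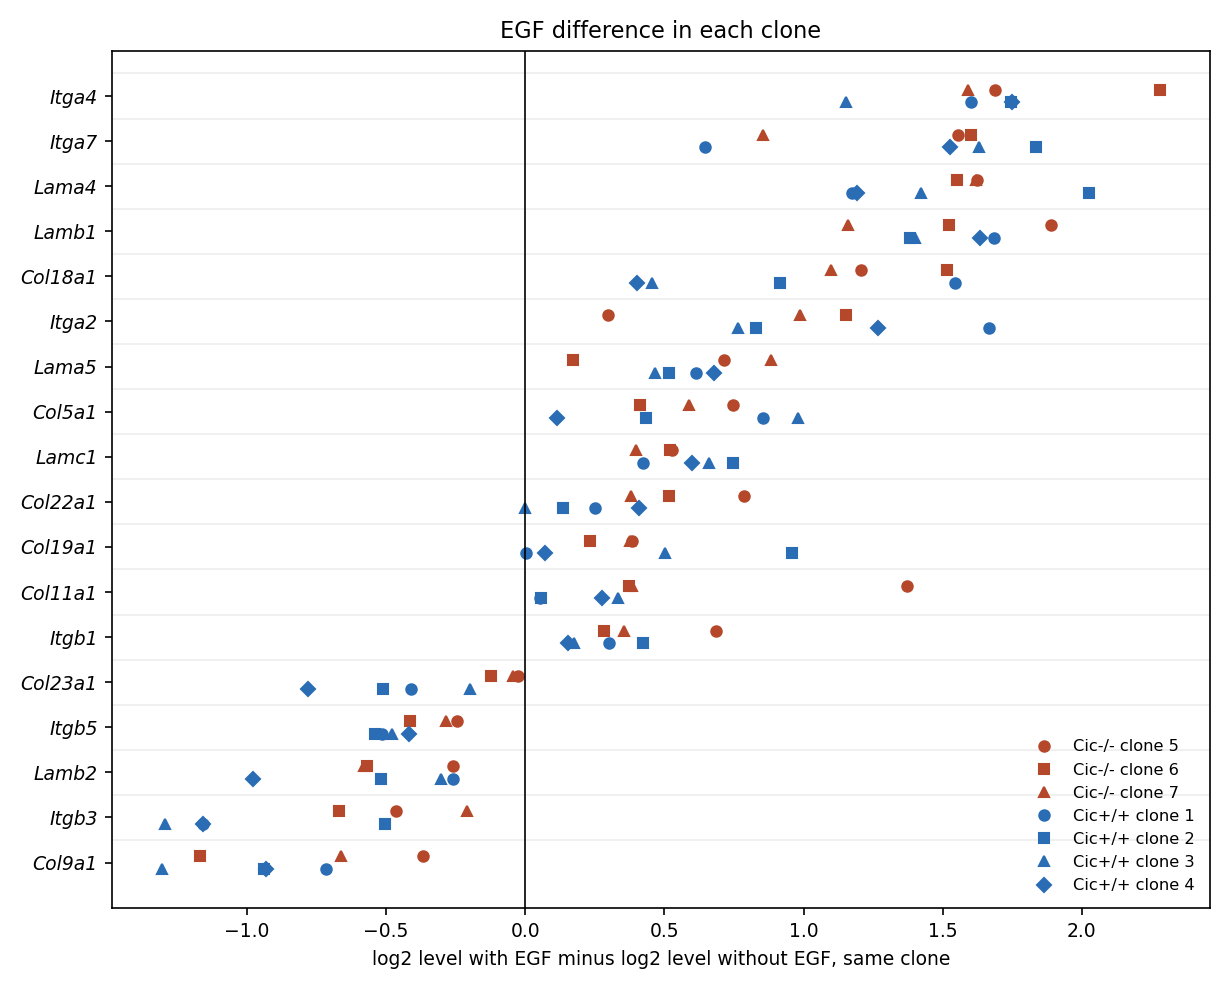
Log2 level with EGF minus log2 level without EGF in each clone, for the 18 tested members whose difference had 1 sign in all 7 clones. Red points are Cic-/- clones and blue points Cic+/+ clones. Itga4, Itga7, Lama4 and Lamb1 lie beyond 0.5 in all 7, while Col19a1 in clone 1 and Col22a1 in clone 3 lie only just above 0.

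The collagens were read as a family next. Of the 43 collagens, 39 had a positive mean difference in Cic-/- (median 0.22) and 23 in Cic+/+ (median 0.01), where all 23152 genes had medians of 0.01 and -0.01. The clone medians over the 43 were 0.35, 0.23 and 0.38 in clones 5, 6 and 7, against 0.11, -0.06, 0.01 and -0.06 in clones 1 to 4. The 39 ranged between 29 and 39, and the 23 between 17 and 27, when probesets were summarised by the mean or the brightest, the arrays were rescaled, or a clone was left out. A similar split was seen outside the collagens. The 8 leukocyte integrins had clone medians of 0.32, 0.33 and 0.08 in clones 5, 6 and 7. In clones 1 to 4 these were 0.03, -0.13, -0.11 and 0.07. Their mean level per array was low, at 4.42 to 4.84. The 10 mural cell markers had clone medians of 0.38, 0.31 and 0.14 in clones 5, 6 and 7, against -0.11, -0.10, 0.17 and 0.02 in clones 1 to 4. The 10 endothelial markers had clone medians of 0.30, 0.28 and -0.09 in the same Cic-/- clones, against -0.04, 0.30, 0.16 and 0.06 in the Cic+/+ clones. The part of either list in the collagen medians was not tested. No member passed the test of the difference between genotypes (interaction) in limma, 0 of 78 against 0.00576% of all genes, or 0 against 0.0403% with the random block. At an unadjusted p under 0.05, 7 members did, all more positive in Cic-/- (2.86% of all genes, either direction). The 10 laminins had medians of 0.31 in Cic-/- and 0.41 in Cic+/+, and 7 and 9 of them were positive. With the mean of the probesets the laminin medians were 0.31 in Cic-/- and 0.16 in Cic+/+, in the opposite order. For the 27 integrins the medians were 0.27 in Cic-/- and 0.12 in Cic+/+, with 20 and 16 positive. With the brightest probeset this order turned too, to 0.08 in Cic-/- and 0.26 in Cic+/+, with 16 and 23 positive.

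Col18a1, the basement membrane collagen whose end fragment is endostatin, measured 6.29, 6.58 and 6.02 with EGF in Cic-/-, against 5.08, 5.07 and 4.92 without it. The Cic+/+ clones measured 7.09, 6.14, 6.11 and 6.41 with EGF, against 5.54, 5.22, 5.66 and 6.00 without it. Neither pair of groups overlapped. The difference was 1.27 ± 0.25 in Cic-/- (limma adjusted p = 0.0553, with the block 0.00745) and 0.83 ± 0.22 in Cic+/+ (limma adjusted p = 0.102, with the block 0.02). With the block the call in Cic-/- was lost without clone 5 or 6 (up to 0.097), and that in Cic+/+ without clone 1, 2 or 3 (up to 0.106).

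Col12a1, a collagen that bridges fibrils in tissue under load, had the widest collagen difference in Cic-/-. With EGF the Cic-/- clones measured 9.81, 9.07 and 8.62, against 7.09, 6.80 and 8.38 without it. With EGF the Cic+/+ clones measured 8.59, 9.27, 8.89 and 8.11, against 8.68, 7.13, 7.86 and 7.04 without it. Clones 5, 6 and 2 differed by over 2 units, while clones 7 and 1 differed by 0.24 and -0.10, having the highest levels of their genotype without EGF. The difference was 1.75 ± 0.48 in Cic-/- (limma adjusted p = 0.206, with the random block 0.0502) and 1.04 ± 0.42 in Cic+/+ (limma adjusted p = 0.311), so that neither passed. At least 52 of its 54 probesets were higher with EGF in each genotype.

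Col6a1 and Col6a2, chains that join in the beaded filaments of collagen VI, were higher with EGF in each Cic-/- clone and had mixed signs in Cic+/+. Col6a1 differed by 2.52, 1.01 and 0.45 in clones 5, 6 and 7, against 0.52, -0.41, 0.43 and -0.26 in clones 1 to 4. Col6a2 differed by 1.22, 0.85 and 0.86 in clones 5, 6 and 7, against 0.51, -0.40, -0.08 and 0.06 in clones 1 to 4. The mean difference of Col6a1 was 1.33 ± 0.50 in Cic-/- (limma adjusted p = 0.361) and 0.07 ± 0.43 in Cic+/+ (limma adjusted p = 0.971). That of Col6a2 was 0.98 ± 0.35 in Cic-/- (limma adjusted p = 0.33, with the fixed block 0.0178) and 0.02 ± 0.30 in Cic+/+ (limma adjusted p = 0.988). The gap between the genotypes did not pass for either (interaction 1.26 ± 0.66 and 0.95 ± 0.46, limma adjusted p = 1 for both).

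On the median of the probesets, other collagens reached the threshold in 1 genotype only with the block. None passed the test of the difference between genotypes. Col4a6, a chain of a specialised type IV network, was higher by 0.70 ± 0.20 in Cic-/- (limma adjusted p = 0.215, with the block 0.0413) and by 0.10 ± 0.17 in Cic+/+ (limma adjusted p = 0.868). Col22a1, a collagen of tissue junctions, was higher by 0.56 ± 0.16 in Cic-/- (limma adjusted p = 0.215, with the block 0.0413) and by 0.20 ± 0.14 in Cic+/+ (limma adjusted p = 0.606). Col5a1, which sets the width of collagen fibrils, was higher by 0.58 ± 0.19 in Cic-/- (limma adjusted p = 0.296) and by 0.60 ± 0.17 in Cic+/+ (limma adjusted p = 0.125, with the block 0.0277). Col5a1 also passed in Cic+/+ without the block when its probesets were averaged (0.70, limma adjusted p = 0.034). The common type IV chains Col4a1 and Col4a2, which are transcribed from a shared promoter, differed by 0.39 ± 0.24 and 0.21 ± 0.19 in Cic-/- and did not pass (limma adjusted p = 0.662 and 0.786). In Cic+/+ they were within 0.01 of 0, and their sign there turned with the summary of the probesets.

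Col9a1, a chain of a collagen that coats fibrils, measured 4.94, 4.60 and 5.25 with EGF in Cic-/-, against 5.30, 5.77 and 5.92 without it. The Cic+/+ clones measured 5.02, 5.56, 5.47 and 5.05 with EGF, against 5.73, 6.50, 6.78 and 5.98 without it. The groups did not overlap in either genotype. The difference was -0.73 ± 0.27 in Cic-/- (limma adjusted p = 0.365, with the block 0.0872) and -0.97 ± 0.24 in Cic+/+ (limma adjusted p = 0.0807, with the block 0.00788). Col9a1 passed in Cic+/+ without the block on the mean of its probesets (-0.93, limma adjusted p = 0.00851). It also did so on the brightest (-1.93, limma adjusted p = 0.0454). Col23a1, a collagen that spans the membrane, differed by -0.06 ± 0.18 in Cic-/- (limma adjusted p = 0.956) and by -0.48 ± 0.16 in Cic+/+ (limma adjusted p = 0.2, with the block 0.0427), with 9 and 5 of its 14 probesets higher. Oligodendrocyte markers were lower with EGF in the same Cic+/+ clones, as given above, and their part in the EGF results was not tested. In Cic-/-, 0 of these 9 markers passed in limma and 2 were lower at an unadjusted p under 0.05. Other lineage markers were lower with EGF as well. Of 8 oligodendrocyte progenitor markers, 2 fell in Cic-/- and 1 in Cic+/+, and their median difference was -0.72, -1.21 and -0.90 in clones 5, 6 and 7, against -0.30, -0.29, -0.16 and -0.03 in clones 1 to 4. Of 8 astrocyte markers, 0 passed in Cic-/- in limma (5 lower at an unadjusted p under 0.05) and 2 fell in Cic+/+. Their median difference was -0.85, -0.58 and -0.40 in clones 5, 6 and 7, against -0.53, -1.04, -0.91 and -0.52 in clones 1 to 4. The part of these markers in the EGF results was not tested either.

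**Figure D3:**
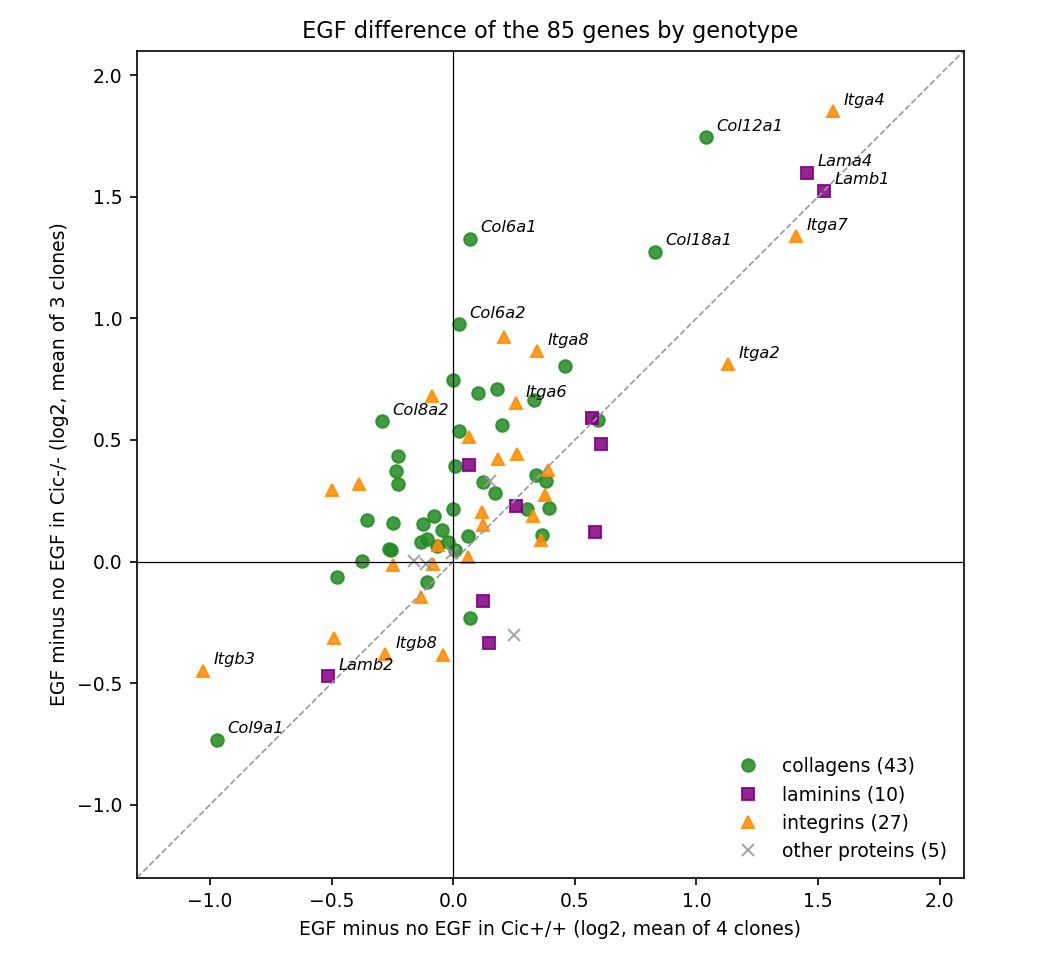
EGF difference (log2) of each of the 85 genes in Cic-/- (vertical, mean of 3 clones) and in Cic+/+ (horizontal, mean of 4 clones), with the dashed line marking equal differences. Itga4, Lama4, Lamb1 and Itga7 lie at upper right near the line. Most collagens lie above 0 in Cic-/- (39 of 43) and on both sides of 0 in Cic+/+ (23 of 43 above).

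The other question was what loss of Cic changes. With EGF, no member passed in limma, 0 of 78 against 0.317% of all genes (with the block 0 against 0.363%), and 13 members were past an unadjusted p of 0.05 (16.7% of the 78, against 10.6% of all genes), 11 of them higher in Cic-/-. The widest differences were those of the collagen VI chains Col6a1 and Col6a2. Col6a1 measured 10.09, 9.30 and 9.61 in Cic-/- with EGF, against 8.97, 6.81, 7.98 and 7.43 in Cic+/+ with EGF. Col6a2 measured 8.21, 7.59 and 8.37 in Cic-/- with EGF, against 7.58, 6.11, 6.38 and 6.34 in Cic+/+ with EGF. Neither overlapped, and Cic+/+ clone 1 came closest to the Cic-/- clones for both.

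The differences were 1.87 ± 0.46 for Col6a1 (3.66-fold, limma adjusted p = 0.129) and 1.45 ± 0.33 for Col6a2 (2.74-fold, limma adjusted p = 0.0952, with the block 0.0545). All 19 probesets of Col6a1 and all 18 of Col6a2 were higher in Cic-/-. Without clone 1 both passed, at limma adjusted p = 0.0354 and 0.00587. Without EGF they were higher in Cic-/- by 0.61 ± 0.46 and 0.50 ± 0.33 (limma adjusted p = 0.697 and 0.628), with overlap between the genotypes. The third chain, Col6a3, overlapped between the genotypes with EGF and without it.

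Lamb1 was higher in Cic-/- by 0.97 ± 0.39 in both media (limma adjusted p = 0.38 with EGF and 0.372 without), with all 33 probesets higher in each. Clone 1 lay among the Cic-/- clones for Lamb1, at 9.85 with EGF and 8.16 without. Without that clone Lamb1 passed in both media, at 1.32 with EGF (limma adjusted p = 0.0473) and 1.27 without (0.0381). Lamc1 had a difference of 0.52 ± 0.29 with EGF and 0.65 ± 0.29 without, also at all 25 probesets, and did not pass (limma adjusted p = 0.557 and 0.441). Clone 1 was not singled out by the labels, and there is no stated ground for leaving it out.

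Other members that did not overlap between the genotypes with EGF were Col4a5, Col8a2, Col20a1, Itgal and Itgam, higher in Cic-/-, and Col4a4 and Col9a3, lower in it. With Col6a1 and Col6a2 these made 7 higher (8.97% of the 78, against 5.81% of all genes) and 2 lower (2.56%, against 5.91%). Itgam and Itgal, chains of leukocyte integrins, were higher by 0.73 ± 0.19 and 0.55 ± 0.16 (limma adjusted p = 0.135 and 0.191). Their levels were low, at 5.12 to 5.38 for Itgam in Cic-/- with EGF, against 4.25 to 4.66 in Cic+/+ with EGF. With the brightest probeset the sign for Itgam and Col8a2 was reversed. The 14 mitosis genes, which mark dividing cells, all had a negative difference in Cic-/- with EGF (median -0.98, 0 passing and 9 at an unadjusted p under 0.05 in limma). Their mean level with EGF was 7.81, 9.02 and 8.92 in clones 5, 6 and 7. In clones 1 to 4 it was 9.20, 9.97, 9.28 and 9.82. Clone 5 thus lay furthest below, and at 7.67 it was also the lowest clone without EGF. Their part in the genotype differences was not tested.

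Without EGF, Col9a3, a chain of the same collagen as Col9a1, was the 1 member of 78 that passed, against 0.553% of all genes. It measured 6.49, 5.91 and 5.76 in Cic-/- without EGF, against 6.83, 6.86, 6.99 and 7.37 in Cic+/+ without EGF, with no overlap. It fell by 0.96 on the log2 scale in Cic-/- (SE 0.20, limma adjusted p = 0.0474), with 14 of 16 probesets lower. With the block the limma adjusted p was 0.0661, no member passed (0.697% of all genes did), and the call held in 1 of 7 fits that left out a clone, that without clone 5. With the mean of its probesets the difference was -0.65 (limma adjusted p = 0.127), and with the brightest it was 0.04. With EGF it was lower by 0.64 ± 0.20 in Cic-/- (limma adjusted p = 0.229), again with no overlap. Of 9 oligodendrocyte markers, 6 were also lower in Cic-/- without EGF, among them Enpp6 (-3.95 ± 0.21, limma adjusted p = 2.96e-07). The EGF difference of Col9a3 was -0.05, -0.05, -0.07 and -0.89 in clones 1 to 4. In clones 5 to 7 it was -0.47, 0.45 and 0.17. The median EGF difference of the oligodendrocyte markers was -1.37, -1.67, -1.77 and -1.71 in clones 1 to 4. In clones 5 to 7 these markers had medians of 0.20, -0.30 and -0.36. Their part in the Col9a3 result was not tested.

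Lama1, the alpha chain of the first laminins of the embryo, was higher in Cic-/- by 0.62 ± 0.24 without EGF and 0.34 ± 0.24 with it and did not pass (limma adjusted p = 0.343 and 0.658). Other members that did not overlap without EGF were Itgb8 and Col28a1, higher in Cic-/- (2.56% of the 78, against 4.2% of all genes), and Col4a6, Col5a3, Col6a5, Col9a2, Col18a1 and Itgax, lower in it. With Col9a3 the lower ones made 7 of 78 (8.97%, against 5.18% of all genes). Itgb8 measured 11.51, 11.54 and 11.72 in Cic-/- without EGF, against 11.22, 11.01, 11.30 and 11.04 in Cic+/+ without EGF, a difference of 0.45 ± 0.18 (limma adjusted p = 0.364). Col5a3, a minor chain of fibrillar collagen V, was lower by 0.69 ± 0.20 (limma adjusted p = 0.186), and passed with the mean of its probesets (-0.58, limma adjusted p = 0.037). Of the 43 collagens, 34 were higher in Cic-/- with EGF (median 0.19) and 17 without EGF (median -0.10). Under the other probeset summaries and scalings, or without a clone, the count with EGF was 30 to 38 and its median 0.14 to 0.23. Without EGF the count was 13 to 22, and the median turned to 0.01 with the brightest probeset.

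**Figure D4:**
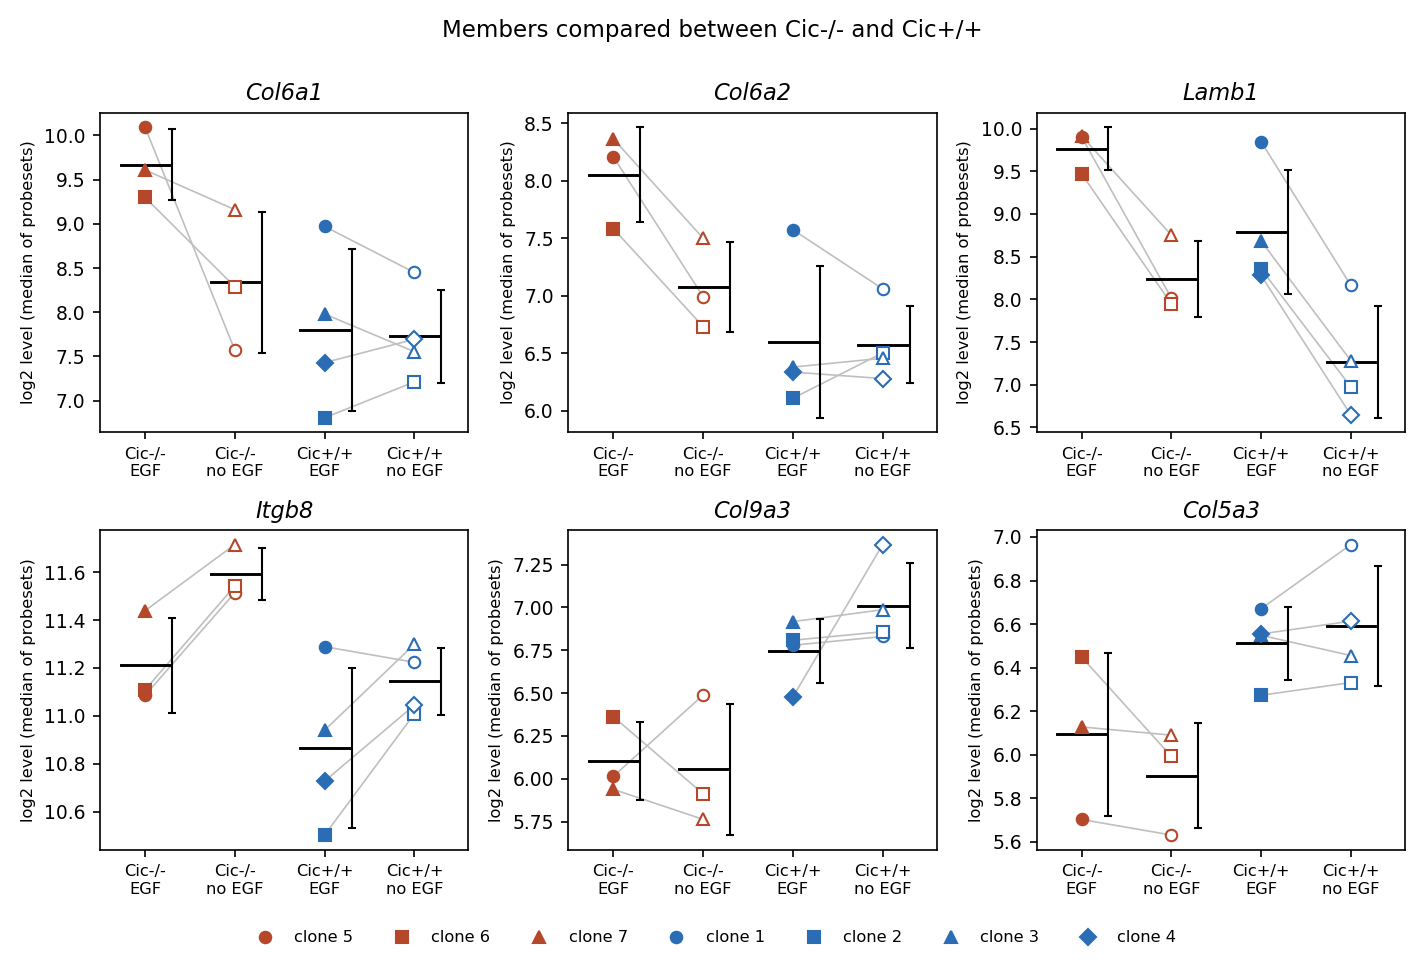
Log2 level of 6 genes on each array, in Cic-/- and Cic+/+ with and without EGF. Points are arrays, marked by clone, grey lines join the arrays of a clone, black lines are means and bars are SD. Col6a1 and Col6a2 with EGF are higher in all 3 Cic-/- clones than in any Cic+/+ clone, and clone 1 is the highest Cic+/+ clone. Col9a3 is lower in Cic-/- in both media.

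Clones of 1 genotype differed from each other in many of these genes. The SD between clones, over the mean of both media and within genotype, had a median of 0.25 over the 78 tested members, against 0.20 over all tested genes. It was widest for Itga7 (0.83), Lama4 (0.78), Itga2 (0.69), Itga11 (0.67) and Itga3 (0.63). Clone 1 was the highest Cic+/+ clone for Itga7, Itga2, Itga3, Itga11, Lamb1, Lamc1, Col6a1 and Col6a2. Clone 7 was the highest Cic-/- clone for the same 8 genes and the lowest for Lama4, at 6.55 against 8.83 in clone 5. These genes were picked for their spread after their values were seen, so the pattern is a description. The 10 mural cell markers were highest in the same clones. Their mean level in clone 1 was 6.54 with EGF and 6.53 without it. In clones 2 to 4 it was 5.86 to 6.31 and 5.86 to 6.22. In clone 7 it was 6.68 and 6.65, against 6.26 to 6.34 and 5.88 to 5.89 in clones 5 and 6. Their part in the clone differences was not tested.

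Genes that make or bind the matrix were read beside the members. Of 26 tested other matrix proteins, 0 passed for EGF in Cic-/- and 2 rose in Cic+/+, Fbn1 and Fbn2, the fibrillins of elastic microfibrils. Fbn2 was higher by 1.77 ± 0.42 in Cic-/- (limma adjusted p = 0.118, with the block 0.014) and rose by 1.98 ± 0.37 in Cic+/+ (limma adjusted p = 0.0202). Fbn1 was higher by 1.21 ± 0.23 in Cic-/- (limma adjusted p = 0.0518, with the block 0.00333) and rose by 1.15 ± 0.20 in Cic+/+ (limma adjusted p = 0.0152). With the block, 5 of the 26 were higher and 1 lower in Cic-/-, where 2.08% of all genes passed, 1% higher. In Cic+/+ 5 were higher and 2 lower, against 1.97% and 3.2% of all genes. Of 24 collagen processing enzymes, 0 passed in either genotype without the block, while 6 in each were higher at an unadjusted p under 0.05 in limma. For EGF the share of all genes at that p is not given here, so counts at it are set against no background. With the block 2 were higher in Cic-/- and 3 in Cic+/+, against 1% and 1.97% of all genes.

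Of 26 tested genes of the integrin adhesion complex, which ties integrins to actin, 0 passed for EGF in Cic-/- in limma (3 higher and 1 lower at an unadjusted p under 0.05) and 1 fell in Cic+/+. That was Lims2, an adaptor bound to integrin-linked kinase, at -1.84 ± 0.33 (limma adjusted p = 0.0163). Parvb, another adaptor of that kinase, fell in Cic-/- without EGF relative to Cic+/+, by 1.65 on the log2 scale (SE 0.32, limma adjusted p = 0.0355). It measured 6.77, 7.64 and 8.15 in Cic-/- without EGF, against 9.28, 8.80, 9.15 and 9.45 in Cic+/+ without EGF. Of 20 other matrix receptors, 0 passed for EGF in either genotype in limma (1 higher and 1 lower at an unadjusted p under 0.05 in each). Between the genotypes with EGF, 1 of these receptors rose in Cic-/- relative to Cic+/+. That was Mrc2, which takes up collagen fragments, at 1.48 ± 0.27 (limma adjusted p = 0.0334).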

How the data were processed

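The deposited values are log2 probeset levels from RMA, per the submitters' processing notes. The sources used here do not give the RMA version or the annotation's build. Of 269751 probesets, the 233753 with 1 gene symbol were used, with the median taken per gene and array. Of the 85 members, 84 matched a current symbol in the RefSeq table of GRCm38.p6, which also gave the promoter windows. A filter on dim genes took away 25% of them, the 5788 with a mean under 4.40, and left 17364. All 14 arrays were used, and their number limits the precision.

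Differences came from limma 3.58.1 (R 4.3.3) as contrasts of 4 group means with no block (10 residual and 4.06 prior degrees of freedom), adjusted by Benjamini-Hochberg over all 17364 genes. Figures used Python 3.11.15, pandas 2.3.3 and matplotlib 3.10.9. The fit was also run on simulated data, scored for EGF in Cic+/+ only. It did not cover the other comparisons, and no result here rests on it. In the interaction, the Cic+/+ difference with EGF is taken from the Cic-/- one.

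By the labels, arrays of 1 clone come from 1 animal. Their deviations from the group means correlated at 0.584, 0.156 and 0.616 in clones 5 to 7 and at 0.474, 0.323, 0.459 and 0.337 in clones 1 to 4, each above any correlation with another clone. The clone as a random block had a consensus correlation of 0.348.

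Alternatives were the block, other probeset summaries, filters, priors and scalings, only the arrays compared, and leaving out each clone; leaving out clones under the block, and the family counts under each summary, were added after seeing the data.

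The members and gene lists were chosen with earlier results of these data known. The genes named by rule were passing members, the member of each class with the lowest p in each EGF and Cic comparison, 9 standing members (Itgb1, Itga6, Itgav, Itgb8, Lamb1, Lamc1, Lama2, Col4a1 and Col4a2) and up to 3 passing genes of each other list. All other genes named with values, such as Lama4, Lamb2, Col6a1, Col22a1, Col23a1 and Itgb5, were chosen after their values were seen.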

Additional observations from a re-analysis of the deposited data

Results flagged for a closer look

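Col8a2, a chain of network collagen VIII, had EGF differences of 0.19, 0.58 and 0.96 in Cic-/- clones 5, 6 and 7, against -0.35, -0.25, -0.51 and -0.06 in Cic+/+ clones 1 to 4. Every Cic-/- clone thus lay above 0 and every Cic+/+ clone below it. The level of Col8a2 was low, with clone means over both media of 4.66 to 5.08, where the dim limit was 4.40. The difference between the genotypes was 0.87 ± 0.24, and its test over all genes did not pass (limma adjusted p = 1, unadjusted p = 0.00246).

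Itgal, the alpha chain of the leukocyte integrin LFA-1, split the same way, with EGF differences of 0.41, 0.52 and 0.03 in Cic-/- clones 5, 6 and 7, against -0.61, -0.33, -0.41 and -0.20 in Cic+/+ clones 1 to 4. The difference between the genotypes was 0.70 ± 0.22 (limma adjusted p = 1, unadjusted p = 0.00689). Its direction in Cic+/+ turned with the brightest probeset. The level of Itgal was low as well, with clone means over both media of 4.73 to 5.22.

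In 3 cases 1 array of a group of 4 stood apart from the rest of its group, all in Cic+/+ without EGF. Itga11, a receptor for fibrillar collagen, was at 6.65 in clone 1, where the nearest other clone was at 4.92. Col5a2, a fibrillar chain, was at 6.94 in clone 4, with the nearest at 7.28. Col4a2 was at 5.95 in clone 4, with the nearest at 6.26. A total of 76 groups of 4 arrays were looked at for the 38 named members, and chance gives such a gap in about 5% of them.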

How the results depend on the processing

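The counts of passing members depended on the clone block. For EGF in Cic-/- the count was 1 without the replicate block, 5 with a random and 6 with a fixed one. It was 2 with the mean of the probesets and with quantile normalization, 0 with only the arrays compared, and 0 to 3 when a clone was left out (1 to 9 with the random block). The count stayed at 1 with the brightest probeset, but the member was Col18a1 in place of Itga4. For EGF in Cic+/+ it was 1 without the block, 10 with a random and 12 with a fixed one, 4 with the mean and 3 with the brightest probeset, 3 with only the arrays compared, and 0 to 2 when a clone was left out (2 to 9 with the random block). Without clone 1 the random block gave 9 in Cic-/-. For Cic loss with EGF it was 0, and 3 without clone 1 (Lamb1, Col6a1 and Col6a2) with or without the block. The 1 member for Cic loss without EGF, Col9a3, was lost with the mean of the probesets, where Col5a3 passed in its place. No member passed (0) with the random block, the brightest probeset, no dim filter, a trended robust prior, centred arrays, quantile normalization and only the arrays compared, and the count was 0 to 1 when a clone was left out (Lamb1 without clone 1, Col9a3 without clone 5). The interaction had 0 passing members in every fit made. For most of these the cause was not tested; fits without a clone or with only the arrays compared hold fewer arrays.

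Over the named members and comparisons 30 values reversed, none of them of a passing result except that of Col9a3, and the cause was not tested. With the brightest probeset the difference for Cic loss with EGF was -0.62 for Itgam, -0.24 for Col8a2 and -1.39 for Itgb3bp. That without EGF was 0.043 for Col9a3, -0.29 for Itga9 and -1.39 for Itgb3bp. For EGF in Cic+/+ it was 0.49 for Itgb3, 0.63 for Itgal, -0.67 for Col6a4 and 0.33 for Col4a2, and for EGF in Cic-/- -0.36 for Itgam and 0.065 for Itgb1bp2. With the mean of the probesets it was -0.10 for Col4a1, 0.036 for Col4a2 and -0.00042 for Lama2 in Cic+/+, and 0.088 for Itgb1bp2 in Cic-/-. For Col4a2 in Cic+/+ it was 0.030 with centred arrays and 0.021 with quantile normalization. Leaving out clones gave -0.035 to 0.58 for Itga11 (Cic loss with EGF), -0.022 to 0.59 for Itga2 (Cic loss without EGF) and, for EGF in Cic+/+, -0.018 to 0.14 for Lama2, -0.051 to 0.030 for Col4a1 and -0.065 to 0.042 for Col4a2. Among the class medians of the EGF difference, 18 moved by more than the spread between clones under an alternative and 177 did not.

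Only 3 and 4 clones per genotype, no scanner files to set signal against background, and bulk RNA limit these values.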
